A study of Mus musculus with 21 samples.

Results

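Among the regions that lost methylation in intestinal adenomas of APCMin mice, the short ones with the largest relative loss are described here. They are hypomethylated differentially methylated regions (DMRs) of 500 bp in which the mean signal of 6 normal intestine samples was at least 2 times the mean of 5 adenomas. This rule chose 1024 of the 6546 hypomethylated DMRs of 500 bp (15.6%), out of 8845 hypomethylated and 13980 merged DMRs in all, and they are called strong-loss DMRs. A DMR of 500 bp is a single window of the genome scan, since longer DMRs were merged from overlapping windows. Because the strong-loss DMRs were selected on the contrast of adenoma with normal intestine, their values in that contrast are a description and are not tested.

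The mice were male C57BL/6J animals aged 15 to 19 weeks, and DNA came from the ileum. Normal tissue was taken from 3 wild type mice of genotype Apc-+/+ (B1 to B3, called B6 normal) and from 3 Apc-Min/+ mice (N4 to N6, called APCMin normal), and 5 adenomas were taken from Apc-Min/+ mice (Ad4 and Ad4-1 of 1 mouse, and Ad5, Ad6 and Ad7 of 1 mouse each). Mice 4, 5 and 6 gave both tissues, and Ad7 had no normal sample. No agent was given to any group. The samples were excised pieces of whole tissue, so each holds several cell types, and a lower signal in all cells cannot be told apart from a change in the mixture of cells.

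DNA methylation is the addition of a methyl group to cytosine, in mammals mostly where cytosine is followed by guanine (a CpG site). Apc restrains the Wnt pathway by marking beta-catenin for destruction, and intestinal adenomas of APCMin mice arise after loss of the remaining wild type allele. In methylated DNA immunoprecipitation with sequencing (MeDIP-seq), fragments that carry 5-methylcytidine are pulled down with an antibody and counted. The signal is given as rpm, the mean coverage of a region by extended reads, scaled to the number of aligned reads in the library. It depends on how many CpG sites a region holds as well as on how many of them are methylated.

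Sequence is shown first for strong-loss DMRs near the top of 2 rankings used throughout, 3 regions from each (the region at Rtkn, which ranks above that at Cd9, is not shown). The first ranking is by relative loss among DMRs with a normal mean of at least 0.5 rpm, and the second by relative loss among DMRs in the promoter of a protein-coding gene, in both cases where every adenoma lay below every normal sample. From each region the 200 bases with the most CpG sites are printed from the forward strand of mm9, with CpG sites in capitals.
between genes, nearest to Vegfa (chr17:46064771-46064970): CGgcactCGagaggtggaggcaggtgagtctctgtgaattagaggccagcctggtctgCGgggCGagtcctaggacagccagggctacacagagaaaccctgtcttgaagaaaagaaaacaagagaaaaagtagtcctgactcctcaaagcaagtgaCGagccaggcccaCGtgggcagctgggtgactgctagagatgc
intron of Grip2 (chr6:91756404-91756603): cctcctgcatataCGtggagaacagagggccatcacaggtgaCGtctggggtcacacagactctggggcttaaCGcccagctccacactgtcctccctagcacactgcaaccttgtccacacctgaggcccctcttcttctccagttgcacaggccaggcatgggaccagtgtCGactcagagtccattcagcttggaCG
between genes, nearest to Lrch1 (chr14:75362917-75363116): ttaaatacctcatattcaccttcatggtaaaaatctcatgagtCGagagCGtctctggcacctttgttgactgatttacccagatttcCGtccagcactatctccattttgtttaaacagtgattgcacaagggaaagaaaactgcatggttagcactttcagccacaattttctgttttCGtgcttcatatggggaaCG
promoter of Ddc (chr11:11797651-11797850): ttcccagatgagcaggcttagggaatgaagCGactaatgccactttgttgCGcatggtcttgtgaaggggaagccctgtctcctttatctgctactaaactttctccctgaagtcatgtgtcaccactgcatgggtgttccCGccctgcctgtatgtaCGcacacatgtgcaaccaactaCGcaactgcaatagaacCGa
promoter of Usp19, inside Lamb2 (chr9:108392383-108392582): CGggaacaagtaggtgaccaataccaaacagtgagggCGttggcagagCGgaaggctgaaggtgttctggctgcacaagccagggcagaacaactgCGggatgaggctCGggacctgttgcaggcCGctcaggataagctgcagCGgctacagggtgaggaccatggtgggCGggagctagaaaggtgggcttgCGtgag
promoter of Cd9 (chr6:125445539-125445738): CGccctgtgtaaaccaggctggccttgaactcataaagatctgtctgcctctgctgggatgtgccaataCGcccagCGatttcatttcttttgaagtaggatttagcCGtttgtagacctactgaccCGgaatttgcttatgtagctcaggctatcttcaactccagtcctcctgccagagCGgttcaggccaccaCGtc
These stretches hold 6, 5, 5, 6, 9 and 7 CpG sites in the order shown. A whole strong-loss DMR held a median of 8 CpG sites. The median was 7 in the other hypomethylated DMRs of 500 bp and 3 in 500 bp windows over the genome.

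The strong-loss DMRs had a low signal in every library. Over the 1024 regions the mean was 0.356 rpm in B1, 0.324 rpm in B2 and 0.348 rpm in B3. It was 0.321 rpm in N4, 0.331 rpm in N5 and 0.333 rpm in N6. In adenomas it was 0.153 rpm in Ad4, 0.134 rpm in Ad4-1, 0.142 rpm in Ad5, 0.168 rpm in Ad6 and 0.143 rpm in Ad7. By the rule the adenomas had to be lower, and among them Ad6 was highest and Ad4-1 lowest. The mean of the sample means was 0.335 ± 0.0137 rpm in normal intestine (SD, n = 6) and 0.148 ± 0.0132 rpm in adenoma (SD, n = 5). In the other 5522 hypomethylated DMRs of 500 bp these means were 0.455 ± 0.00911 rpm and 0.291 ± 0.00937 rpm. The normal mean of a strong-loss DMR was under 0.3 rpm in 467 regions (45.6%) and at least 0.5 rpm in 63 regions (6.15%), and none reached 1 rpm. Of the other hypomethylated DMRs of 500 bp, 22.2% had a normal mean under 0.3 rpm and 28.8% one of at least 0.5 rpm. The ratio of 2 was thus met mostly at the lower end of the listed signal.

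**Figure D1:**
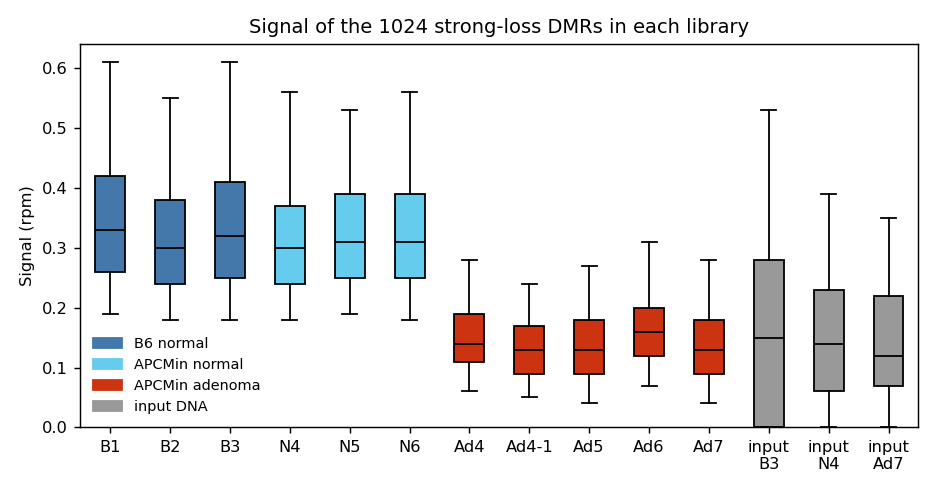
Signal of the 1024 strong-loss DMRs in each library, in rpm; boxes show the quartiles and the median, and whiskers the 5th and 95th percentiles. The medians lie between 0.30 and 0.33 rpm in the 6 normal samples, between 0.13 and 0.16 rpm in the 5 adenomas and between 0.12 and 0.15 rpm in the 3 input libraries.

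The median ratio of normal to adenoma mean was 2.21, with quartiles of 2.08 and 2.43 and a maximum of 6.88. A ratio of at least 2.5 was met by 207 regions and a ratio of at least 3 by 45. The median log2 ratio of adenoma to normal, taken after adding 0.05 rpm to each mean, was -0.93, against -0.57 in the other hypomethylated DMRs of 500 bp. The limit of 2 cuts through a dense part of the distribution. At the limit 7 regions had a ratio of exactly 2, 180 (these included) lay less than 0.05 above it, and 187 DMRs lay just outside, by no more than 0.05. The median normal mean was 0.308 rpm just inside and 0.328 rpm just outside, and the median adenoma mean 0.154 and 0.166 rpm. The nearest region outside had a ratio of 1.998, from 0.352 rpm in normal intestine and 0.176 rpm in adenoma.

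**Figure D2:**
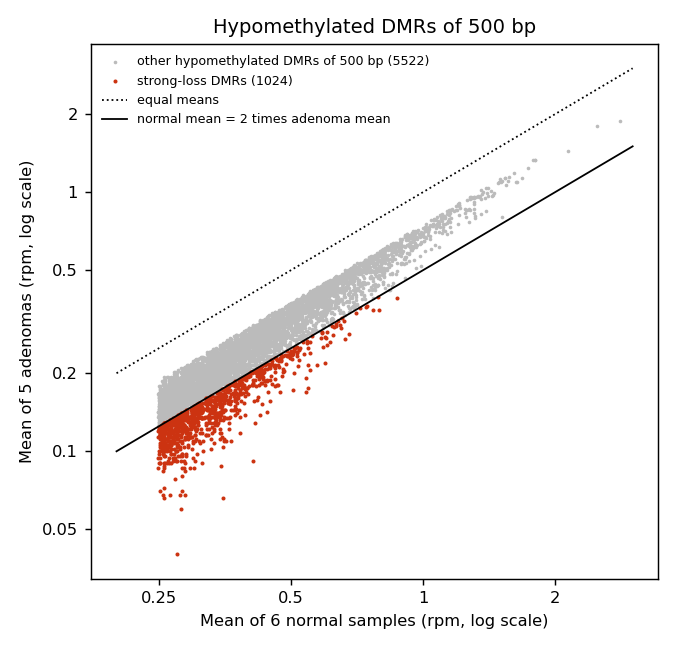
Mean signal of the 5 adenomas against that of the 6 normal samples, in rpm on log scales, for the 6546 hypomethylated DMRs of 500 bp (each point is a region). The 1024 strong-loss DMRs lie on or below the solid line, where the normal mean is 2 times the adenoma mean, and most of them lie at the low end of the normal signal.

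At these levels a region rests on few fragments. At the median normal mean of 0.305 rpm a region held the bases of 9.18 to 13.4 fragments per normal sample, and at the median adenoma mean of 0.136 rpm those of 3.15 to 4.80 fragments per adenoma. The corresponding relative counting error was 27.4% to 33.0% in normal samples and 45.6% to 56.4% in adenomas, for independent fragments and for counting alone. The median coefficient of variation was 26.2% among normal samples and 39.0% among adenomas. It was 17.2% and 21.6% in the other hypomethylated DMRs of 500 bp, which have a higher signal. The observed spread was below that of counting alone in 688 strong-loss DMRs (67.2%) among normal samples and in 765 (74.7%) among adenomas. It was so in 89.0% and 91.7% of the other hypomethylated DMRs of 500 bp. The counting error was taken as if each fragment lay wholly inside its region. Fragments that cross an edge also add coverage, so this error and these shares are upper values. The listing by ranks favours regions with little spread within a group, so this comparison does not measure the spread between mice.

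All 5 adenomas lay below all 6 normal samples in 546 strong-loss DMRs (53.3%). Over all hypomethylated DMRs this share was 51.9%, and over the other ones of 500 bp 40.8%. The ratio of the rule and the ranks of the listing had used the same samples, so nothing is read from the difference. Each adenoma was also set against the mean of the normal samples. Ad4-1 was at or below 0.5 times the normal mean in 739 regions (72.2%), Ad5 in 708 (69.1%), Ad7 in 695 (67.9%), Ad4 in 627 (61.2%) and Ad6 in 527 (51.5%). All 5 adenomas were at or below it in 63 regions (6.15%), 4 of them in 310 and 3 of them in 449. With a median ratio near the limit of 2 and few fragments per adenoma, the rule itself leaves few regions where all 5 can meet it, and nothing is read from that count. Ad6 alone was highest of the adenomas in 281 regions and Ad4-1 alone lowest in 265. Ad4 and Ad4-1, both from animal 4, differed by a median log2 ratio of 0.16, with Ad4 higher in 585 regions and Ad4-1 higher in 393.

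Against the normal intestine of the same mouse the adenoma was lower in nearly all strong-loss DMRs. Ad4 was lower than N4 in 1000 regions, Ad4-1 lower than N4 in 1010, Ad5 lower than N5 in 1009 and Ad6 lower than N6 in 995. These were 97.7%, 98.6%, 98.5% and 97.2% of the strong-loss DMRs, against 97.6%, 97.7%, 97.8% and 95.8% of the other hypomethylated DMRs of 500 bp, so the direction was about as frequent in both classes. The median log2 ratios were -0.87, -0.99, -0.97 and -0.78 in the same order, against -0.51, -0.58, -0.55 and -0.47. All 4 comparisons were lower in 943 regions (92.1%) and 3 of them in a further 80. These pairs use samples of the rule and are a description. Within the libraries whose names begin with series 4 (B1, B2, N4, Ad4 and Ad4-1) the median log2 ratio was -0.97 and the adenoma mean was lower in all 1024 regions, as in all of the other hypomethylated DMRs of 500 bp. Within series 9 (N5, N6 and Ad5) it was -1.0, with 1023 regions lower (99.9%, against 99.2%). Within series 10 (B3 and Ad6) it was -0.86, with 990 regions lower (96.7%, against 97.9%). Ad7, of series 2, had no normal sample in its series.

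Input DNA, sequenced without immunoprecipitation, was available for B3, N4 and Ad7. Its mean over the strong-loss DMRs was highest in the library of B3 (0.186 rpm), followed by N4 (0.157 rpm) and Ad7 (0.147 rpm). The summed MeDIP signal was 1.87 times the summed input in B3, 2.04 times in N4 and 0.973 times in Ad7. MeDIP and input are each scaled to their own library, so a ratio near 1 in Ad7 means like shares of reads. It does not show that methylation was absent from these regions. Ad7 was above its own input in 527 of the 1024 regions (51.5%), against 804 regions in B3 (78.5%) and 847 in N4 (82.7%). In the other hypomethylated DMRs of 500 bp the MeDIP signal of Ad7 was 1.89 times its input, and in the hypermethylated DMRs of 500 bp 3.45 times. The MeDIP signal of Ad7 had entered the rule, so these ratios are a description of 1 library per group.

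**Figure D3:**
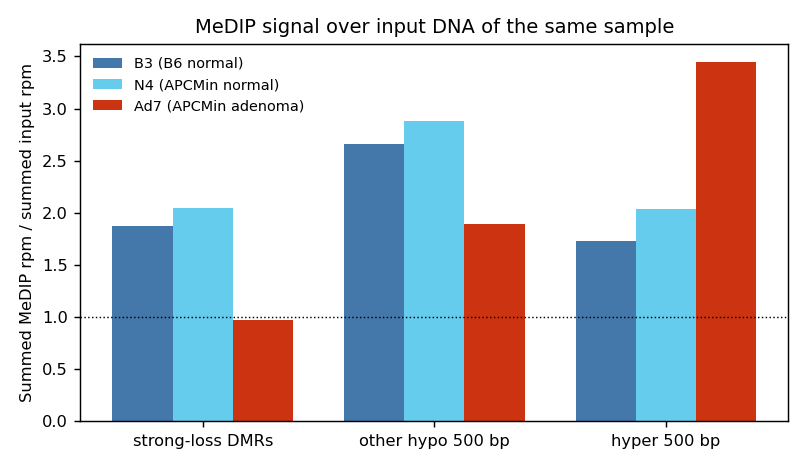
Summed MeDIP signal divided by the summed input signal of the same sample (no unit), for the 3 samples with input DNA in 3 classes of 500 bp DMRs; the dotted line marks equal signal. In the strong-loss DMRs the bars stand at 1.87 in B3, 2.04 in N4 and 0.973 in Ad7.

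The input values were not used by the rule. The summed input of the strong-loss DMRs in Ad7 was 0.932 times that in N4, with an exact 95% counting interval of 0.866 to 1.004 for independent fragments. The ratio of Ad7 to B3 was 0.787 (0.726 to 0.853) and that of N4 to B3 was 0.844 (0.778 to 0.916). In the other hypomethylated DMRs of 500 bp the same ratios were 0.973 (0.943 to 1.004), 0.859 (0.830 to 0.889) and 0.883 (0.853 to 0.915). Input of B3 was thus higher than that of both other libraries in both classes of region. The intervals of the 2 classes overlap for each ratio. The input libraries held 0.753 to 1.38 fragments in a region of 0.14 rpm, so a single region cannot be read in them.

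Whether the strong-loss DMRs differed between normal intestine of APCMin and of B6 mice was tested, since the rule used the 6 normal samples together. The listing by ranks had also set the adenomas against all 6 normal samples. Regions where APCMin normal was already near the adenoma level were thus unlikely to be listed. The test cannot show how often such regions occur. The mean over the regions was 0.328 ± 0.00640 rpm in APCMin normal (SD, n = 3) and 0.343 ± 0.0165 rpm in B6 normal (SD, n = 3). With limma, fitted on log2 values of all 13980 DMRs and all 11 MeDIP samples, no strong-loss DMR passed an adjusted p of 0.05 in either direction, and 0% of all DMRs did. The smallest adjusted p (limma, Benjamini-Hochberg) was 0.444. At an unadjusted p under 0.05, 24 strong-loss DMRs (2.34%) were higher in APCMin normal and 40 (3.91%) lower, against 1.51% and 2.64% of all DMRs. These shares were 0.797% and 1.45% in the other hypomethylated DMRs of 500 bp, and 2.84% and 3.68% in the hypermethylated ones. The 3 samples of one group all lay above those of the other, with APCMin normal higher, in 26 regions (2.54%) against 3.24% of all DMRs, and with APCMin normal lower in 44 regions (4.30%) against 4.82%. By this second count the other hypomethylated DMRs of 500 bp had 3.40% and 4.76%. The shares of the strong-loss DMRs were thus above those of all DMRs, and of the other hypomethylated DMRs of 500 bp, by one count and below them by the other. The median log2 difference of APCMin normal from B6 normal was -0.04, and -0.02 over all DMRs. The median standard error of a single region was 0.26 on the log2 scale. Differences of single strong-loss DMRs ran from -1.13 to 0.90 and none was called. A single region could thus differ by well over the standard error and not be called.

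The regions ranked first by relative loss at a normal mean of at least 0.5 rpm are given with their values, which the rule had used. The leading one, chr17:46064751-46065250, lay between genes, 104 kb from the start of Vegfa, the gene of a growth factor for blood vessels. Its signal was 0.77, 0.56 and 0.55 rpm in B1 to B3, 0.59, 0.41 and 0.40 rpm in N4 to N6, and 0.17, 0.07, 0.28, 0.21 and 0.15 rpm in Ad4, Ad4-1, Ad5, Ad6 and Ad7. The groups did not overlap, and the log2 ratio of adenoma to normal was -1.40. The region in an intron of Grip2, which encodes a scaffold protein that binds glutamate receptors, had 0.42, 0.46 and 0.66 rpm in B1 to B3, 0.38, 0.37 and 0.74 rpm in N4 to N6, and 0.05, 0.15, 0.20, 0.24 and 0.22 rpm in the adenomas in the same order. Its log2 ratio was -1.32, and Ad4 was its lowest library. The region 15.3 kb from Lrch1 (chr14:75362751-75363250) had 0.92, 0.70 and 0.52 rpm in B1 to B3, 0.55, 0.56 and 0.34 rpm in N4 to N6, and 0.29, 0.15, 0.20, 0.25 and 0.21 rpm in the adenomas. Its log2 ratio was -1.26, and the lowest normal sample, N6, was near the highest adenoma, Ad4.

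The region with the highest normal mean of all strong-loss DMRs, 0.872 rpm, lay in an exon of Prkch (chr12:74878751-74879250), which encodes a protein kinase C. Its signal was 1.10, 0.82 and 1.24 rpm in B1 to B3, 0.70, 0.88 and 0.49 rpm in N4 to N6, and 0.42, 0.14, 0.46, 0.47 and 0.46 rpm in the adenomas. Ad4-1 stood below the other adenomas, and the lowest normal sample, N6 with 0.49 rpm, was close to Ad6 with 0.47 rpm. The region at Prkca (chr11:108010751-108011250), another protein kinase C gene, also overlapped AL645963.1. It had 0.613 ± 0.211 rpm in normal intestine (SD, n = 6) and 0.264 ± 0.0754 rpm in adenoma (SD, n = 5). The region in an intron of Mtor (chr4:147829501-147830000), the kinase that couples nutrients to growth, had 0.603 ± 0.104 rpm in normal intestine and 0.258 ± 0.0634 rpm in adenoma. Other regions of this ranking lay in introns of Med13l, a subunit of the Mediator kinase module, Phc2, a Polycomb protein, and Igf2bp1, an RNA-binding protein. Between genes they lay nearest to Pde10a, Dtx1, Wnt7b, Myo10 and Ihh, at 21.2, 17.6, 76.5, 64.0 and 8.50 kb from the gene's start. The region in exon and intron of Efhd2 held the most CpG sites of the 15, with 18, and the others 5 to 12. The log2 ratios of the 15 regions ran from -1.40 to -1.003.

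**Figure D4:**
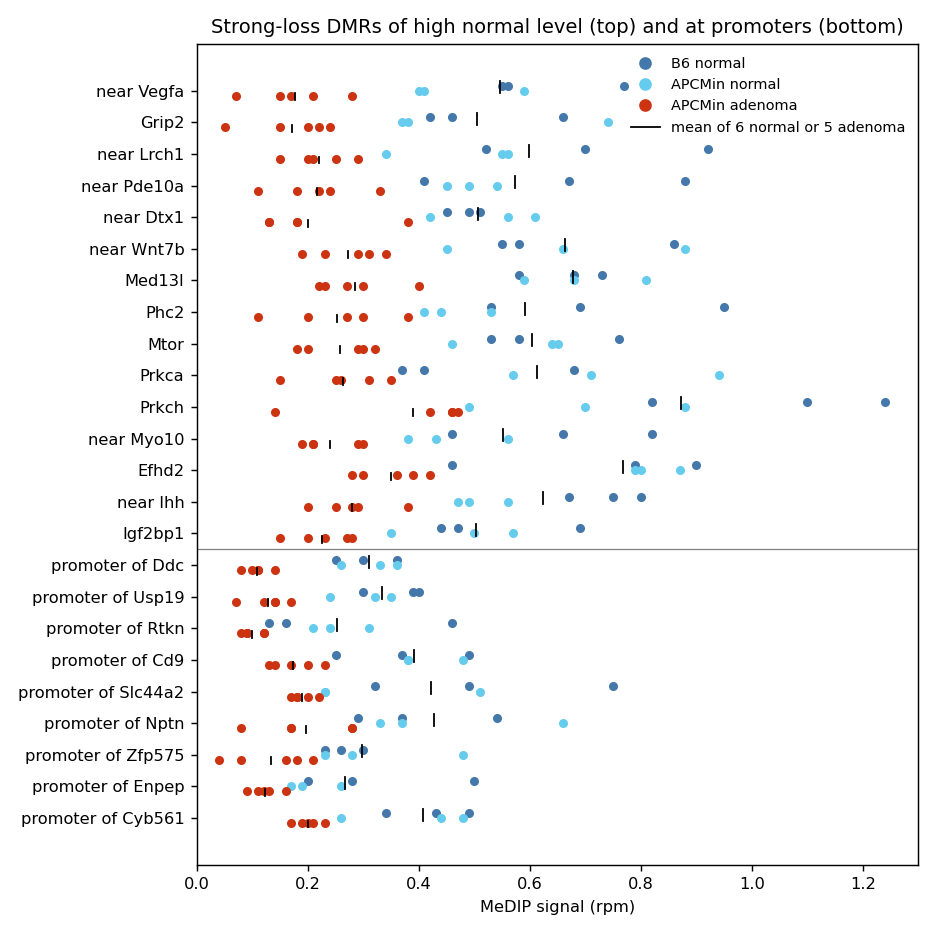
MeDIP signal (rpm) of the 15 strong-loss DMRs ranked first at a normal mean of at least 0.5 rpm and of 9 of those ranked first at promoters; each point is a sample, and lines mark the means of 6 normal samples and 5 adenomas. No adenoma reaches the lowest normal sample in any of these regions, which was a condition of the ranking.

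Whatever the level, the lowest log2 ratio was at chr16:30090501-30091000, between genes and 26280 bp from the start of Hes1, a transcriptional repressor of the Notch pathway. It had 0.22, 0.19 and 0.40 rpm in B1 to B3, 0.28, 0.24 and 0.32 rpm in N4 to N6, and 0.05, 0.04, 0.03, 0.04 and 0.04 rpm in the adenomas. The adenomas lay close together, and the ratio of means was 6.88. Next came chr15:84863751-84864250, 3492 bp from the start of Fam118a, with a ratio of 5.30 and adenomas between 0.00 and 0.09 rpm. The third, in Synj2 (chr17:5975251-5975750), had a ratio of 4.44, from normal samples between 0.14 and 0.82 rpm and adenomas between 0.03 and 0.13 rpm. The fourth lay in Nfatc2 (chr2:168343751-168344250), a calcium-regulated transcription factor, with a ratio of 4.67. These 4 regions were chosen after their values had been seen.

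At promoters, taken as 1000 bp upstream to 500 bp downstream of the 5′ end of a gene, 37 strong-loss DMRs were found (3.61%, exact 95% interval 2.56% to 4.95%), and 22 of them at protein-coding genes. The share was 2.79% in the other hypomethylated DMRs of 500 bp, 4.38% in the hypermethylated DMRs of 500 bp and 2.71% in windows of the same length over the genome. The region at Ddc, which encodes the decarboxylase that makes serotonin and dopamine, led the promoters. It had 0.36, 0.25 and 0.30 rpm in B1 to B3, 0.26, 0.33 and 0.36 rpm in N4 to N6, and 0.08, 0.11, 0.14, 0.11 and 0.10 rpm in the adenomas, with a log2 ratio of -1.19. The region at Usp19, a deubiquitinating enzyme, lay inside the laminin gene Lamb2 and had 0.40, 0.39 and 0.30 rpm in B1 to B3, 0.35, 0.24 and 0.32 rpm in N4 to N6, and 0.14, 0.12, 0.14, 0.17 and 0.07 rpm in the adenomas. Its log2 ratio was -1.11. In neither region did the groups overlap, which was a condition of this ranking. The nearest samples were B2 with 0.25 rpm and Ad5 with 0.14 rpm at Ddc. They were N5 with 0.24 rpm and Ad6 with 0.17 rpm at Usp19.

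The region at Enpep (chr3:129035501-129036000), a peptidase of the brush border, had normal samples between 0.17 and 0.50 rpm and adenomas between 0.09 and 0.16 rpm, so that the groups were nearly in contact. The region at Rtkn overlapped a CpG island, and so did that at Slc44a2, which encodes a choline transporter-like protein and held 20 CpG sites. The regions at Cd9, a tetraspanin, in Gm16749, Nptn, a cell adhesion molecule, Zfp575, inside Ethe1, and Cyb561 had log2 ratios from -0.98 to -0.87.

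Most strong-loss DMRs lay away from promoters. An intron was overlapped by 549 (53.6%), an exon by 136 (13.3%), and 447 (43.7%) lay between genes. The other hypomethylated DMRs of 500 bp gave 53.8%, 12.5% and 43.3%, and the genome windows 39.5%, 7.43% and 58.3%. A CpG island was overlapped by 72 regions (7.03%, exact 95% interval 5.54% to 8.77%), against 8.24% of the other hypomethylated DMRs of 500 bp, 12.2% of the hypermethylated ones and 3.61% of genome windows. With stricter island limits the order of the hypomethylated classes turned, at 1.46% (0.822% to 2.40%) against 0.797%. Genome windows had 1.32%, and none of these shares was tested. A region held a median of 8 CpG sites, with quartiles of 6 and 10 and a range of 0 to 38. The median was 7 in both other classes of DMR and 3 in genome windows. The median GC content was 46.8%, against 46.2% in the other hypomethylated DMRs of 500 bp, 48.0% in the hypermethylated ones and 41.6% in genome windows. At least 20 CpG sites were held by 14 strong-loss DMRs (1.37%), by 0.67% of the other hypomethylated DMRs of 500 bp and by 4.03% of the hypermethylated ones. Since all strong-loss DMRs had to pass a ratio of 2, their log2 ratios were bounded in every place, with medians of -0.92 at promoters, -0.95 in exons outside promoters, -0.93 in introns alone, -0.94 between genes and -0.99 in CpG islands. Across the 1024 regions the number of CpG sites and the log2 ratio had a Spearman's rho of -0.21, which describes regions that share the same libraries.

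Sequence letters of transcription factors were searched on both strands of each region. The letters TGANTCA include the site bound by AP-1, a dimer of Fos and Jun proteins that answers growth factor signals. They are called the AP-1 letters here, and matches with any middle base are counted. They were present in 325 strong-loss DMRs (31.7%, exact 95% interval 28.9% to 34.7%). They were present in 21.9% of the other hypomethylated DMRs of 500 bp, in 11.5% of the hypermethylated DMRs of 500 bp and in 14.3% of genome windows. When the middle base was fixed, a split made after these shares had been seen, the letters with C or G in the middle, TGACTCA on either strand, were present in 24.8% of strong-loss DMRs, 15.4%, 6.399% and 7.68%, in the same order of classes. The letters with A or T in the middle, TGAATCA on either strand, were present in 8.79%, 7.97%, 5.60% and 7.26%. The classes thus stood apart for the first form and much less for the second. These shares were not tested, and a match of letters does not show that a factor is bound.

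Stretches around the letters are shown for 4 of the 5 strong-loss DMRs of the first ranking that hold them (the one at Prkch is not shown), as bases of the forward strand of mm9 with the AP-1 letters in capitals.
between genes, nearest to Lrch1 (chr14:75362819-75362879): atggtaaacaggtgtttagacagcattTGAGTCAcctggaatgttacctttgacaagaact
intron of Phc2 (chr4:128412329-128412389): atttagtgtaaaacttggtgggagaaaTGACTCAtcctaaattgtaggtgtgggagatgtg
intron of Mtor (chr4:147829555-147829615): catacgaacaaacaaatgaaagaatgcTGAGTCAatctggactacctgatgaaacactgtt
intron of Igf2bp1 (chr11:95856154-95856214): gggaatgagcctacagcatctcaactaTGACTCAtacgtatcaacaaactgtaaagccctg
The Mtor region held the letters 3 times and the others once each. In the stretches shown from the Lrch1 and Mtor regions the middle base was G, and in those from Phc2 and Igf2bp1 C.

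Of all letters searched, only the AP-1 letters, which differed most between the classes, were split further. No other letters are thus set beside the bands and classes below, and none of these shares was tested. The share with the AP-1 letters was higher in bands of larger loss. Among all hypomethylated DMRs of 500 bp it was 20.2% at a ratio under 1.5, 20.5% from 1.5 to 1.75, 27.1% from 1.75 to 2, 30.6% from 2 to 2.5 and 36.2% at 2.5 or more. For TGACTCA the shares were 13.5%, 14.3%, 20.3%, 23.7% and 29.0%, and for TGAATCA 8.09%, 7.35%, 8.92%, 8.81% and 8.70%. Strong-loss DMRs also had the larger share within classes of normal signal. It was 30.9% against 18.7% at a normal mean of 0.25 to 0.3 rpm, 29.3% against 20.0% at 0.3 to 0.4 rpm, and 40.0% against 24.8% at 0.4 rpm or more. The last class has no upper limit and is not matched in signal. Normal means reached 0.872 rpm in strong-loss DMRs and 2.805 rpm in the other hypomethylated DMRs of 500 bp. By CpG sites the shares were 19.8% against 19.4% in regions with up to 5 sites, 34.5% against 22.6% with 6 to 10, and 35.7% against 23.3% with 11 or more. In CpG-poor regions the shares were thus close. By place the share was 21.6% at promoters (8 of 37 regions), 34.2% in exons outside promoters, 30.02% in introns alone and 33.6% between genes.

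**Figure D5:**
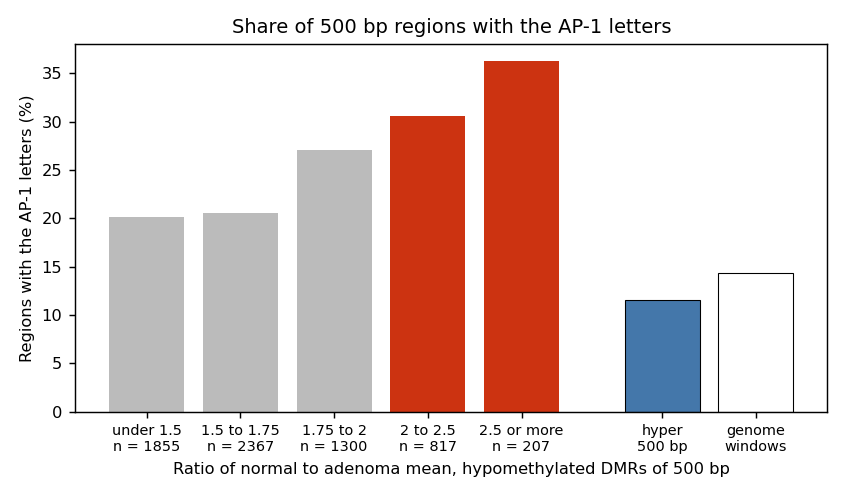
Share of 500 bp regions that hold the AP-1 letters (percent), for hypomethylated DMRs in bands of the ratio of normal to adenoma mean, for hypermethylated DMRs of 500 bp and for genome windows of 500 bp; n is the number of regions. The red bars are the strong-loss DMRs, at 30.6% and 36.2%, against 11.5% in hypermethylated DMRs and 14.3% in genome windows.

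For the other letters searched, the share in strong-loss DMRs lay closer, in percentage points, to that in the other hypomethylated DMRs of 500 bp. TCAAAGG, bound by the TCF and LEF partners of beta-catenin, was present in 11.5% of strong-loss DMRs, 9.80% of the other hypomethylated DMRs of 500 bp, 7.90% of the hypermethylated ones and 9.41% of genome windows. AGATAAG, bound by GATA factors, gave 8.40%, 7.50%, 5.30% and 7.30%. AAAGTCC of HNF4 gave 7.71%, 6.77%, 6.52% and 8.17%, and TTTATGG of CDX factors 6.15%, 6.79%, 6.07% and 7.85%. CACGTG, an E-box with a CpG site, gave 10.9%, 11.7%, 9.001% and 4.83%, so it stood above genome windows in all 3 classes of DMR. CCGGAAG of ETS factors gave 2.54%, 3.51%, 3.09% and 1.40%, and AGGGGGC, a part of the CTCF motif, 5.96%, 5.51%, 7.78% and 3.87%. For TCAAAGG the exact 95% interval of the strong-loss DMRs was 9.63% to 13.6%. It takes regions as independent, and the difference between classes was not tested.

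The strong-loss DMRs were scattered over the genome. The median gap to the next strong-loss DMR was 495 kb, and 16 regions had one within 5 kb. The median gap to the next hypomethylated DMR of any length was 41.4 kb, against 53.0 kb for the other hypomethylated DMRs of 500 bp, and 14.6% against 10.5% had one within 5 kb. By chromosome they made up 13.4% (chromosome 5) to 21.2% (chromosome 19) of the hypomethylated DMRs of 500 bp, and 7 of 35 lay on chromosome X. The 502 protein-coding genes that held a strong-loss DMR in the gene or its promoter were long, with a median of 82.5 kb against 15.4 kb for all 22367 protein-coding genes. A longer gene offers more windows, so counts of genes carry this difference. Of these genes 41 held 2 or more and 9 held 3 or more.

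Genes with several strong-loss DMRs are described by their positions, a choice made after the counts had been seen. Pmepa1 encodes a membrane protein induced by TGF-beta that dampens the signal of its receptor. It spans 52.1 kb of chromosome 2 and held 17 hypomethylated DMRs, 4 of them strong-loss DMRs, all in introns. The one at chr2:173091001-173091500 had normal samples between 0.22 and 0.62 rpm and adenomas between 0.03 and 0.25 rpm, which overlap, and a log2 ratio of -1.25. The one at chr2:173063751-173064250 had normal samples between 0.39 and 0.56 rpm and adenomas between 0.11 and 0.27 rpm, with a log2 ratio of -1.16. Atp7b, a copper-transporting ATPase, held 4 hypomethylated DMRs in 67.5 kb of chromosome 8, and all 4 were strong-loss DMRs in introns, with log2 ratios from -1.07 to -0.83. Rap1gap, which switches off the GTPase Rap1, held 3 strong-loss DMRs among 5 hypomethylated DMRs in 65.1 kb. All 3 separated the groups, as did 53.3% of all strong-loss DMRs, so nothing is read from this. At chr4:137271751-137272250 the gap was narrow, with N4 at 0.21 rpm and Ad6 at 0.19 rpm. At chr4:137272751-137273250 B3 had 0.16 rpm and Ad5 0.14 rpm. These 2 regions lay within 1 kb of each other. Myo1e, a myosin motor, held 3 of 4, and Wwox, a long gene of 913 kb, held 3 of 12. Fgfr2 and Gm20388 also held 4 and 5, but the annotation gives them spans of 3009 and 4435 kb and such spans make the assignment doubtful.

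Gene lists were set beside the share of all protein-coding genes with a strong-loss DMR, which was 2.24%. In the Wnt pathway 3 of 71 genes held one and 18 (25.4%) held any hypomethylated DMR, at a median gene length of 26.5 kb. Cd44, a Wnt target and surface receptor for hyaluronan, had 0.302 ± 0.0776 rpm in normal intestine (SD, n = 6) and 0.124 ± 0.068 rpm in adenoma (SD, n = 5) in an intron region, where the groups overlapped at N4 with 0.16 rpm and Ad7 with 0.23 rpm. Ephb2, a receptor that sorts cells along the crypt, had 0.353 ± 0.0455 rpm and 0.16 ± 0.0748 rpm, without overlap. Sfrp2, a secreted Wnt antagonist, had 0.263 ± 0.0524 rpm and 0.122 ± 0.0455 rpm, also without overlap. Its lowest normal sample, B2, had 0.18 rpm and its highest adenoma, Ad5, 0.17 rpm. The published list of Wnt targets in colon cancer held Cd44 and Ephb2 as its 2 of 28 genes.

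In the TGF-beta and BMP pathway 4 of 38 genes held a strong-loss DMR and 14 (36.8%) any hypomethylated DMR, at a median gene length of 53.4 kb. Smad3, which carries the TGF-beta signal to the nucleus, had 0.353 ± 0.0958 rpm in normal intestine and 0.134 ± 0.0862 rpm in adenoma, and overlap at B2 with 0.23 rpm and Ad6 with 0.26 rpm. Ltbp4 and Tgfb2, a binding protein of the latent ligand and a ligand, had log2 ratios of -1.02 and -0.97 without overlap. At Ltbp4 the lowest normal sample, B3, had 0.17 rpm and the highest adenoma, Ad4, 0.16 rpm, and the region held 1 CpG site. The fourth gene is not described here. In the list of MAPK and growth factor signalling 3 of 49 genes held one, Fgfr2, Insr and Spred1, and the Fgfr2 region lay in the overlong span named above. In the Notch and Hedgehog list it was Notch3 alone, 1 of 26, with a log2 ratio of -0.79.

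Of 44 enterocyte genes 6 held a strong-loss DMR (13.6%), and 14 (31.8%) any hypomethylated DMR. Slc6a19, an amino acid transporter of the brush border, had 0.282 ± 0.11 rpm in normal intestine and 0.098 ± 0.0589 rpm in adenoma, with overlap at B2 with 0.14 rpm and Ad6 with 0.15 rpm. Slc5a1, the sodium-dependent glucose transporter, had 0.303 ± 0.0977 rpm and 0.12 ± 0.0636 rpm in an exonic region that also overlapped 5033423K11Rik, with overlap at N4 with 0.17 rpm and Ad4-1 with 0.21 rpm. Cdhr2, a cadherin that links microvilli, had 0.263 ± 0.0864 rpm and 0.11 ± 0.0332 rpm at its promoter, where N5 and Ad7 both had 0.16 rpm. In the list of adhesion and matrix genes 8 of 57 held one (14.04%), namely Cdh13, Cdh2, Cdh4, Col4a1, Epcam, Itga5, Lamb2 and Sdc1, at a median gene length of 49.5 kb, and 30 (52.6%) held any hypomethylated DMR. Both lists thus lay above the 14.3% of all protein-coding genes for hypomethylated DMRs of every kind, and nothing particular to strong-loss DMRs is read from their shares. Itga5, a fibronectin receptor subunit, had 0.252 ± 0.0917 rpm and 0.094 ± 0.0472 rpm, with N5 and Ad4 both at 0.15 rpm, and held 22 CpG sites in a CpG island. In the list of DNA methylation and Polycomb machinery it was Ezh1 alone, 1 of 34, a histone methyltransferase, with a log2 ratio of -1.18.

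None of 30 secretory epithelial genes, 34 phospholipases, 35 leukocyte markers, 27 stromal and muscle markers and 15 enteric neuron and glia markers held a strong-loss DMR. Any hypomethylated DMR was held by 5, 13, 2, 6 and 1 of these genes, in the same order, and by 14.3% of all protein-coding genes. Among published signatures, genes occupied by both Polycomb complexes in mouse embryonic stem cells gave 12 of 473 (2.54%), and targets of H3K27me3 in human embryonic stem cells 44 of 1021 (4.31%), with median gene lengths of 17.8 and 24.2 kb. Targets of PRC2, EED, MLL and TET1 gave 3.17%, 3.87%, 3.72% and 3.75%. Markers of intestinal stem cells gave 3 of 47, of early transit amplifying cells 4 of 248, of late transit amplifying cells 5 of 93 and of Paneth cells 1 of 47. These counts are of position only, and the lists' share was not tested.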

How the data were processed

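MeDIP-seq was carried out on 3 B6 normal, 3 APCMin normal and 5 adenoma samples, and input DNA of B3, N4 and Ad7 was sequenced. The 7 RNA samples were not analysed here. The authors aligned reads to mm9 with Bowtie (version 0.12.5 per the submitters' processing notes), kept unique hits, extended reads to 300 nucleotides and averaged coverage in overlapping 500 bp windows placed every 250 bp. The deposited rpm values are this coverage scaled by the authors to the number of uniquely aligned reads, given at 2 decimals. Windows with a Wilcoxon p under 0.01, a ratio above 1.33 and a mean above 0.25 rpm in a group were listed, and overlapping ones merged. The authors' columns of group means, variances, ratios and p-values were not used. Regions that met no listing criterion were not analysed here.

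The strong-loss DMRs were chosen by length and by the ratio of means of the rpm values. The regions and gene lists were chosen with earlier results of these data known. Log2 ratios were taken after adding 0.05 rpm. limma (version 3.58.1) was fitted over all 13980 DMRs on log2(rpm + 0.05) and was tested on simulated data. Samples of a group came from separate mice, except Ad4 and Ad4-1. No block was used. Samples of animals 4, 5 and 6 are paired by the labels, and limma's consensus correlation within animals was -0.00218. Fragments were computed from the number of uniquely aligned reads per library in the study's sequencing statistics, 18065841 to 26297510 in normal samples, 13878615 to 21175049 in adenomas and 3228908 to 5931425 in input libraries. Intervals of the input ratios cover counting error only, since reads carry no molecular identifiers. Intervals of shares of regions are binomial, take regions as independent and do not cover the spread between mice.

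Genes came from gencode vM1 on NCBIM37, the same build as mm9, with 37273 genes. CpG islands were called from sequence as windows of at least 300 bp with at least 50% GC and 0.6 times the CpG sites that base composition predicts, and genome windows were all 500 bp windows, placed every 250 bp, without an unknown base. Repeats are not marked in the reference and were not assessed. Regions were named by fixed rules: the 15 with the largest log2 ratio among those with complete separation of the groups and a normal mean of at least 0.5 rpm, the 10 with the largest at promoters of protein-coding genes, and up to 3 genes per list. Regions on chromosome 18 were not named, and 1 promoter region that the rule selects is not reported here. Other regions named are said to have been chosen after their values had been seen. Alternatives changed the samples, the pseudocount, the rule, the replicate block, the library series and the annotation.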

Additional observations from a re-analysis of the deposited data

Results flagged for a closer look

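Single samples stood apart in 5 of the groups of values examined, 1 normal and 1 adenoma group for each named region and the means over all regions (82 groups). A sample was marked when its gap to the nearest other sample was large against the range of its group, and chance alone marks about 5% of groups. The means over all strong-loss DMRs held no such sample. At the region nearest to Dtx1, Ad6 had 0.38 rpm, and the next adenoma 0.18 rpm. At Prkch, Ad4-1 had 0.14 rpm, and the next adenoma 0.42 rpm. At Efhd2, B3 had 0.46 rpm, and the next normal sample 0.79 rpm. At the promoter of Zfp575, N6 had 0.48 rpm, and the next normal sample 0.30 rpm. At the promoter of Enpep, B1 had 0.50 rpm, and the next normal sample 0.28 rpm.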

How the results depend on the processing

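The number of strong-loss DMRs was 997 to 1287 when single samples were left out, with the largest number without Ad6, and 78.03% to 91.4% of the 1024 regions were kept. Adding 0.05 rpm to both means left 308 regions, and a ratio of at least 3 left 45. Medians in place of means gave 1021 regions, 756 of them shared, and library series 4 alone gave 1534, with 751 shared. The median log2 ratio was -1.09 with 0.01 rpm added, -0.54 with 0.25 rpm and -0.35 with 0.5 rpm, since a larger addition shrinks ratios of low values. When single samples were left out it was -0.98 to -0.92. The stricter island limits gave 1.46% of strong-loss DMRs in a CpG island, above the 0.797% of the other hypomethylated DMRs of 500 bp, which reverses the order of the 2 classes. Promoters of all transcripts gave 7.32%, against 5.32% of the other hypomethylated DMRs of 500 bp. They gave 8.53% of the hypermethylated DMRs of 500 bp and 4.15% of genome windows. The median input ratio of Ad7 to N4 over single regions was 0.870.

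Between APCMin and B6 normal intestine 0 strong-loss DMRs were called by limma in the main analysis and in each of the 12 alternatives, leaving out each normal sample included. With the animal as a replicate block 0 were called, and 24 higher and 40 lower had an unadjusted p under 0.05, the numbers found without it. With the library series as a covariate 1 DMR outside the strong-loss DMRs was called. The smallest adjusted p of a strong-loss DMR (limma) ranged from 0.162 to 1.00 over the alternatives. Values of 3 to 5 fragments per adenoma limit what can be said of a single region.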
